A study of Mus musculus with 6 samples.

Results

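The genes analysed here encode the NFAT and NF-κB transcription factors of T cells and their inhibitors: Nfatc1, Nfatc2 and Nfatc3 for NFAT, Nfkb1, Nfkb2, Rel, Rela and Relb for the NF-κB subunits, and Nfkbia and Nfkbiz for the inhibitor IκBα and the related nuclear protein IκBζ. Open chromatin had been measured by ATAC-seq, which tags accessible DNA with the transposase Tn5, and each library came with its own list of peaks. Overlapping or adjoining peaks of the 6 lists were merged into regions, and every region that touched 1 of the 10 gene bodies or the 20 kb on either side was kept. This gave 134 regions, out of 236017 in the genome and 140119 in the same windows of all protein-coding genes.

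The cells were wild-type CD4 T cells of C57BL6/J mice, isolated from spleen in the naive state and differentiated in culture into Th9, Th2 or Th17 cells, with 2 libraries per subset labelled replicates 1 and 3. All cultures were stimulated through CD3 and CD28 and received an antibody that blocks interferon γ. Th2 cultures also had interleukins 4 and 2, Th9 cultures had the same cytokines plus TGF-β1, and Th17 cultures had interleukins 6, 23 and 1β and TGF-β1, with antibodies against interleukins 4 and 2. Cells were collected at the end of differentiation, days after stimulation began, and the methods describe no further stimulation before ATAC-seq. There was no unstimulated sample, so no value separates stimulated from resting chromatin. Nothing in the labels shows that the replicates were separate animals, so p-values measure only the spread between these libraries.

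T-cell receptor signalling reaches both families. Calcium activates the phosphatase calcineurin, which strips phosphate from NFAT proteins so that they enter the nucleus, where they often bind beside AP-1. In parallel, receptor signals activate the IκB kinase, which marks IκBα for destruction and frees dimers of RelA, c-Rel and p50. NF-κB is known to induce the gene of its own inhibitor, Nfkbia, and NFATc1 is known to sustain its own transcription from the first promoter of Nfatc1.

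The lists held 100317 to 142213 peaks, and the lowest fold enrichment called was 2.11 in Th9 replicate 1 against 1.71 to 1.83 in the other 5 lists, so weak sites had to be stronger to appear in that library. Each peak is described here by its within-list percentile, the share of that library's own peaks with an equal or lower fold enrichment over background. Promoters of the T-cell genes Cd3e, Cd3d and Lck had a peak in all 6 lists and that of Cd4 in 4. Promoters of the B-cell genes Cd79a and Ms4a1 and the myeloid genes Lyz2 and Csf1r had none, while that of the myeloid gene Cd14 had one in all 6, at the 41.8th percentile or above. In bulk ATAC-seq a site open in fewer cells and a site less open in each cell cannot be told apart.

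The NFAT and NF-κB genes were widely open in all 3 subsets. Of the 134 regions, 66 (49.3%) were called in all 6 lists, where 26.8% of the regions in the windows of all protein-coding genes were. All 14 regions at the members' own promoters were called in all 6 lists, against 80.3% of promoter regions of protein-coding genes. Of the 120 other regions, 52 (43.3%) were, against 20% of non-promoter regions in gene windows. Among those 120 were 5 regions at promoters of neighbouring genes, all called in all 6 lists, which that background leaves out. Without these, the count was 47 of 115. The windows held a median of 12.2 regions per 100 kb, from 9.85 at Nfatc3 to 19.4 at Nfatc2, and the median over 21755 genes was 9.71, with quartiles of 6.26 and 14.1.

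Where the regions were called in all 6 lists they were also wide. The joined regions at the members' promoters had a median width of 3291 bp and a median within-list percentile of 95.8, where all promoter regions called in all 6 lists had 1884 bp and 91.7. The 52 others had a median of 2241.5 bp and a percentile of 74.1, against 1233 bp and 70.5 for non-promoter regions in gene windows. They include the 5 promoters of neighbouring genes (medians of 3220 bp and 92.9), which that background leaves out. By class, the medians were 2810 bp and 70.0 in introns, 1626 bp and 78.8 for regions touching an exon, and 1374 bp and 71.1 in the flanks. Percentiles of the 52, averaged over the libraries, ran from 47.5 to 95, so these sites overlapped in strength with promoters. Among the 23 intronic regions the range was 48.1 to 95, among the 9 touching an exon 47.5 to 92.1, and among the 15 in the flanks 48.5 to 88.1.

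The regions were spread unevenly over the genes. Nfatc2 had 32, Nfkb1 27 and Nfatc1 22, with 18, 14 and 10 of them called in all 6 lists, and these are also the 3 longest genes. Nfatc3 had 11 regions, 6 of them in all 6 lists, although its body of 71.7 kb is longer than that of Rel. Rel had 8 regions, and its promoter was the only one called in all 6 lists. Nfkbiz had 8, Nfkbia and Relb 7 each, and Nfkb2 and Rela 6 each, with 3 or 4 of them in all 6 lists. By position, 14 regions lay at a member's own promoter, 5 at the promoter of a neighbouring gene, 16 touched an exon, 52 lay in introns and 47 in the flanks, and 23 of the 52 intronic regions were called in all 6 lists.

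**Figure D1:**
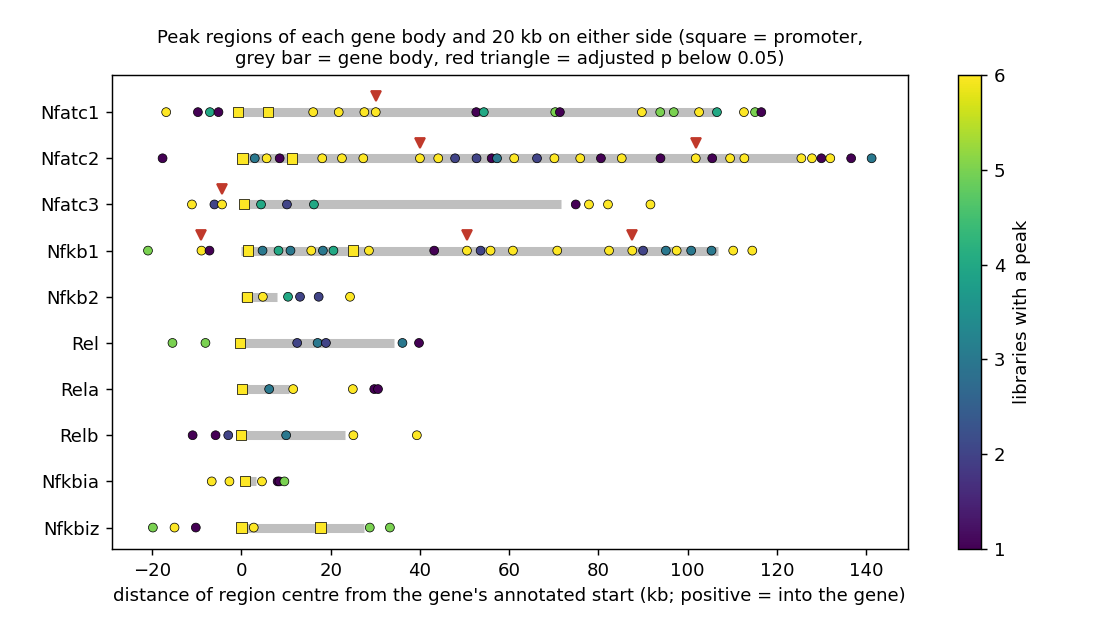
Position of the 134 peak regions relative to each gene's annotated start, in kb, with squares for promoters, circles for other regions, colour for the number of libraries with a peak and grey bars for gene bodies. All 14 promoter squares carry the colour of 6 libraries, and the 7 red triangles, which mark regions that differed among subsets, lie at Nfatc1, Nfatc2, Nfatc3 and Nfkb1.

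Single-library calls were unevenly shared. Of the 24 member regions called in a single library, 14 (58.3%) came from Th9 replicate 3, while that library supplied 16.6% of the single-library regions in the windows of all protein-coding genes. Th9 replicate 1 and Th2 replicate 3 supplied 4 each, Th17 replicate 1 supplied 2, and Th2 replicate 1 and Th17 replicate 3 supplied 0. No single-library region was read as belonging to a subset.

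**Figure D2:**
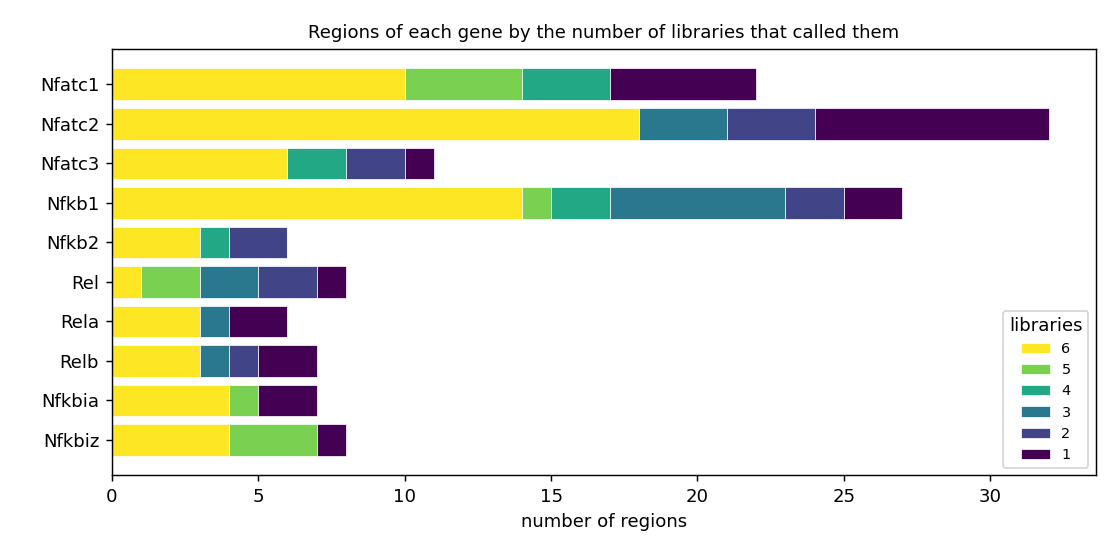
Number of regions of each gene, stacked by the number of libraries with a peak there. Nfatc2 reaches 32 regions with 18 in all 6 libraries, and Rel is the gene with 1 region, its promoter, in all 6.

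Promoters came first. No promoter region of a member differed among the 3 subsets in limma's moderated F-test (0 of 14 at an adjusted p below 0.05 and 4 at an unadjusted p below 0.05), where 4.53% of promoter regions genome-wide were called. The test used the 50493 regions called in all 6 lists, with the log2 fold enrichment of the highest peak of each library put on a common scale by quantile normalization. Over the 14 promoters and 3 comparisons, the largest difference was 0.60 on the log2 scale, and the 95% intervals reached from −0.84 to 0.99. Th9 was the higher in 12 of 14 promoters against Th2 and in 13 of 14 against Th17, where 63.1% and 55.3% of all promoter regions were, and these comparisons share the Th9 libraries.

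Each NFAT gene had a strongly open promoter, but at Nfatc2 it was not the one at the annotated 5′ end of the gene. Nfatc1, whose short inducible isoform starts at the first promoter, had 2 promoter regions. The first, chr18:80711595-80716185 on mm10, centred −0.82 kb from the gene start, lay at percentiles of 92.1 and 92.1 (Th9), 91.3 and 88.8 (Th2) and 83.0 and 82.8 (Th17) (replicates 1 and 3 in that order here and below). Both Th17 libraries were the lowest, but the Th9 minus Th17 difference of 0.60 ± 0.18 (log2 ± SE) had an adjusted p of 0.062 in limma. The internal one, 5.94 kb into the gene, varied less, from 86.4 to 91.6 over all 6 libraries.

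Nfatc2 encodes NFAT1, the NFAT protein already present in resting T cells. The region at its 5′ end, chr2:168601202-168601709, lay at percentiles of 61.4 and 63.5 (Th9), 67.8 and 70.7 (Th2) and 69.5 and 52.5 (Th17), the lowest of the 14 promoters in every library. The region at an internal start 11.28 kb downstream, chr2:168588785-168591965, lay at 94.0 and 93.7 (Th9), 94.7 and 94.2 (Th2) and 88.5 and 85.3 (Th17). The Th17 libraries were again below the other 4, with the smallest F-test p of the 14 promoters (adjusted p of 0.0527 in limma) and a Th2 minus Th17 difference of 0.58 ± 0.17 (adjusted p of 0.051). Nfatc3, the remaining NFAT gene, had 1 promoter region, between 96.3 and 98.3 in all libraries.

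The NF-κB genes had promoters near the top of every list. Those of Rel, Relb and Nfkb2, which encode c-Rel, RelB and p100, lay between 95.4 and 99.4 over the 6 libraries. Rela, for the p65 subunit, lay at 97.4 and 97.0 (Th9), 93.9 and 95 (Th2) and 97.5 and 97.1 (Th17). Th2 was the lowest there, but the Th2 minus Th17 difference of −0.48 ± 0.17 had an adjusted p of 0.108 in limma. Nfkb1, for p105 and p50, had a promoter region between 90.4 and 96.5 and an internal one, 25.01 kb into the gene, between 92.9 and 98.4, with no order of the subsets.

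The promoters of the inhibitor genes were also called in all 6 lists. Nfkbia had the highest single value of the set, with percentiles of 99.5 and 99.3 (Th9), 97.9 and 96.7 (Th2) and 98.6 and 96.1 (Th17). Both Th9 libraries lay above the other 4, and the Th9 minus Th2 difference of 0.57 ± 0.17 had an adjusted p of 0.0832 in limma. Nfkbiz, which encodes a co-regulator needed for a set of secondary NF-κB targets, had a promoter at its 5′ end between 88.7 and 92.2 and an internal one, 17.76 kb into the gene, between 93.9 and 97.3.

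**Figure D3:**
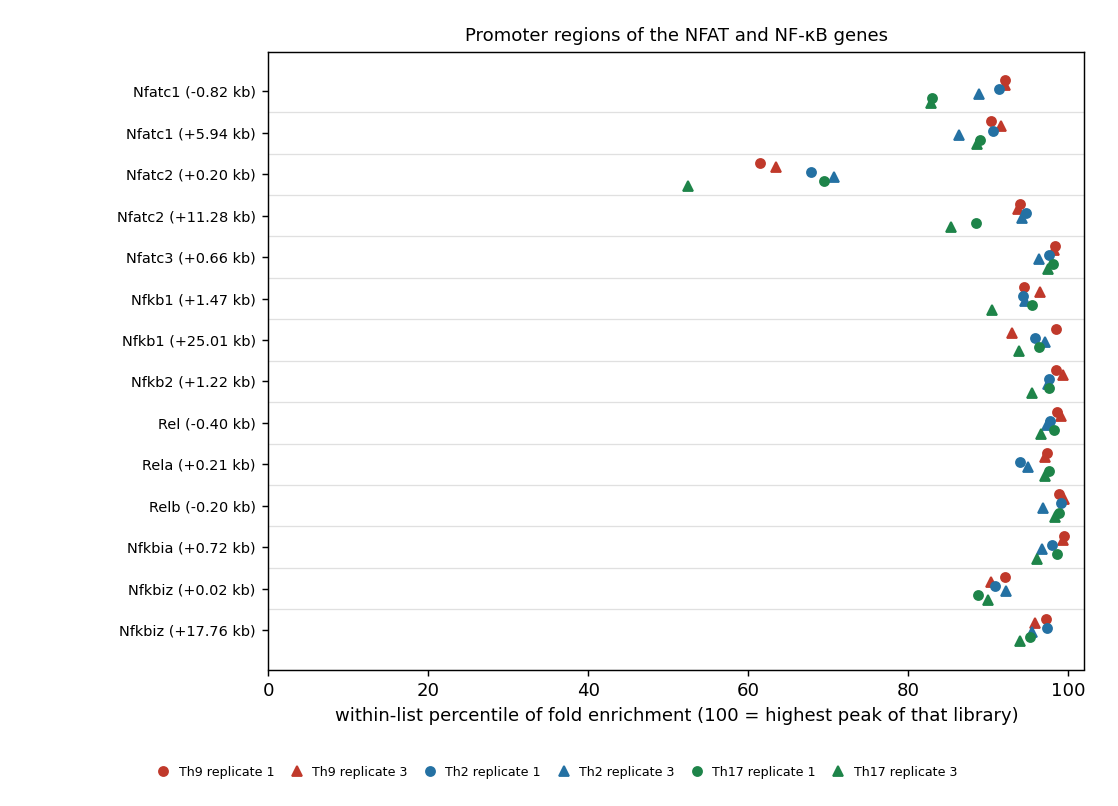
Within-list percentile of fold enrichment (0 to 100) for the 14 promoter regions in each library, with colour for the subset, circles for replicate 1 and triangles for replicate 3. All values but those of the Nfatc2 5′ end (52.5 to 70.7) lie above 82, and the groups overlap or nearly touch at most genes.

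The sequence just upstream of these starts was searched for short words on both strands: GGGANNTTC and GGGGNTTCC for NF-κB, TGGAAA for NFAT and TGANTCA for AP-1. The RefSeq promoter table, on GRCm38.p6, which mm10 displays, held 10 windows of 300 bp for 6 of the members, Nfatc2, Nfatc3, Nfkb2, Rel, Rela and Nfkbia. An NF-κB word stood in 4 of the 10 windows, against 5.57% of 32841 promoters, and an NFAT word in 4, against 21.4%; 2 of the Nfkb2 windows overlap each other. An AP-1 word stood in 1, against 7.81%. The following 3 stretches, the bases just upstream of a start in the direction of transcription, are shown because each holds an NF-κB word (capitals). The first 2 lie within the promoter regions described above, while the Nfatc2 peak region covered only the end of its stretch nearest the start and not the word.
Nfkbia, chr12:55492648-55492897, minus strand: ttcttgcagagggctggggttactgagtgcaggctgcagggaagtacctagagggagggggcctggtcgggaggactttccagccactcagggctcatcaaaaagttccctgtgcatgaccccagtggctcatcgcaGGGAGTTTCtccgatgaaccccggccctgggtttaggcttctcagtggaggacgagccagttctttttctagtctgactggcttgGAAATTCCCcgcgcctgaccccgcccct
Nfkb2, internal start, chr19:46305445-46305694, plus strand: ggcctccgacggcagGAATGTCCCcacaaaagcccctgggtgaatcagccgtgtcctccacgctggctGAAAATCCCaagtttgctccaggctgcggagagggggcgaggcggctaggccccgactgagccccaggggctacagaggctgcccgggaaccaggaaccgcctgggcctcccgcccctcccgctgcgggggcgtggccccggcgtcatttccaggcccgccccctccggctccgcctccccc
Nfatc2, 5′ end, chr2:168601658-168601907, minus strand: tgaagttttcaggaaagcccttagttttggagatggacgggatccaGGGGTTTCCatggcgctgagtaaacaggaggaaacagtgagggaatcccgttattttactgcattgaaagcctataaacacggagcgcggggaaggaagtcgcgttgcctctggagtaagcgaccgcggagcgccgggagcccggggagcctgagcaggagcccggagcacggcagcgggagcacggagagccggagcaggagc

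Counted from the start, the Nfkbia stretch held NF-κB words at positions −113 to −105 and −28 to −20, the second on the opposite strand and sharing bases with an NFAT word at −30 to −25. That of Nfkb2 held them at −235 to −227 and −182 to −174, both on the opposite strand, with an AP-1 word between them at −210 to −204. In Nfatc2 the NF-κB word at −204 to −196 overlapped an NFAT word at −200 to −195. The table's entries for Nfatc3, Rel and Rela held no NF-κB word upstream of the start, which says only that these letters are absent from those windows.

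Outside the members' own promoters, 7 of 52 tested regions (13.5%) differed among the 3 subsets, against 12.5% of non-promoter regions genome-wide. The 52 include 5 promoters of neighbouring genes, 0 of them called, which that background leaves out. Without these the count was 7 of 47. Over promoters and other regions together, 7 of 66 (10.6%) differed, against 10.5%. In the fit as reported, the share of differing regions was thus near that of the genome. At an unadjusted p below 0.05 in the F-test there were 21 of 66. The genome-wide share at an unadjusted p was not counted, so no unadjusted count given here can be read as an excess. By pair, Th9 was higher than Th2 at 2 of 66 and lower at 1, with backgrounds of 1.01% and 2.18% of all tested regions. Th9 was lower than Th17 at 4 (background 2.90%) and higher at 0 (background 3.11%; 12 at an unadjusted p below 0.05). Th2 was higher than Th17 at 3 (background 5.04%) and lower at 4 (background 2.40%). The median difference over the 66 regions was 0.036 for Th9 minus Th2, 0.136 for Th9 minus Th17 and 0.033 for Th2 minus Th17 on the log2 scale, where the medians over all tested regions were 0.015, −0.001 and −0.032.

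**Figure D4:**
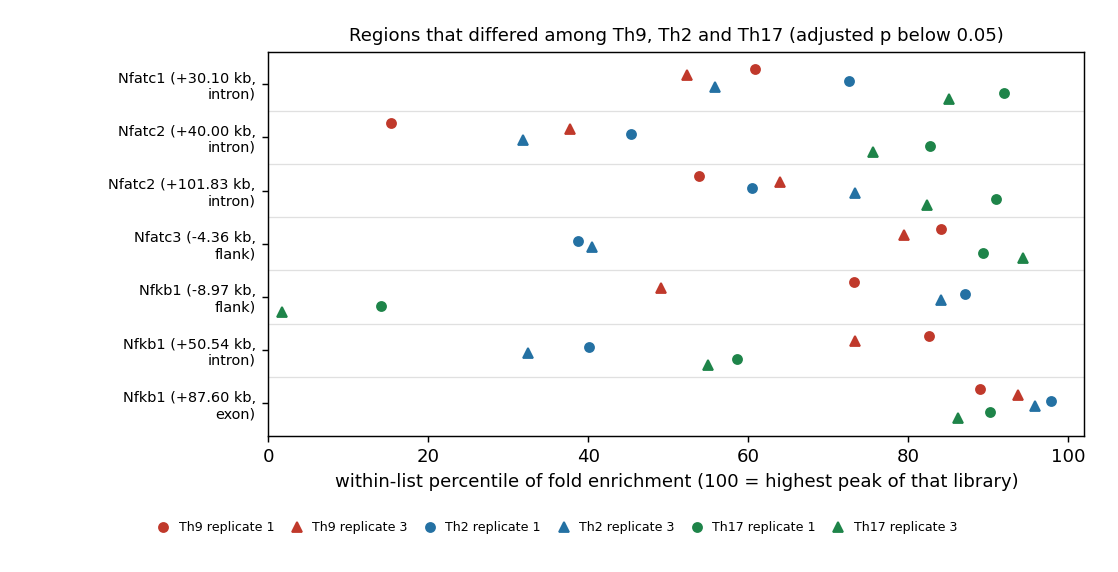
Within-list percentile of fold enrichment (0 to 100) in each library for the 7 regions that passed the F-test, with colour for the subset, circles for replicate 1 and triangles for replicate 3. Th17 lies highest at the Nfatc1, Nfatc2 and Nfatc3 regions and lowest at the Nfkb1 region −8.97 kb from the start, where its values are 14.1 and 1.67.

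At the 3 NFAT genes, the 4 regions that passed the F-test had higher values in Th17 than in Th2. In both of those in Nfatc2, however, the tested values came partly or wholly from different sites. In Nfatc1, an intronic region 30.1 kb into the gene, chr18:80682646-80683301, lay at 60.8 and 52.3 (Th9), 72.6 and 55.8 (Th2) and 91.9 and 85.1 (Th17). The Th17 libraries stood above the other 4 without overlap, with a Th9 minus Th17 difference of −1.13 ± 0.19 (adjusted p of 0.00274 in limma) and a Th2 minus Th17 difference of −1.0 ± 0.19 (adjusted p of 0.00398). Without Th17 replicate 1 these adjusted p-values were 0.0525 and 0.0628. The direction at this site was opposite to that of the Nfatc1 promoter, where the Th17 values were the lowest. The highest region of the gene outside its promoters, in an intron 102.57 kb from the start, lay between 75.3 and 85.4 and did not pass the test (adjusted p of 0.622 in limma).

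Both regions of Nfatc2 that passed the F-test were intronic and need to be read from their single peaks. The region 101.83 kb into the gene, chr2:168498365-168501294, lay at 53.8 and 63.9 (Th9), 60.5 and 73.3 (Th2) and 90.9 and 82.4 (Th17), with a Th9 minus Th17 difference of −0.95 ± 0.22 (adjusted p of 0.0168 in limma). That adjusted p rose to 0.133 without Th9 replicate 1 and to 0.189 and 0.0601 without Th17 replicate 1 or 3. The region held several sites. At the one near 168500736-168501263 the peaks reached percentiles of 15.1 and 63.9 in Th9, 40.5 and 73.3 in Th2 and 90.9 in Th17 replicate 1. The Th17 replicate 3 peak of 1547 bp, at 82.4, ran over 168499748-168501294. The tested values of Th9 replicate 1 (53.8) and Th2 replicate 1 (60.5) came from other peaks, at 168499738-168500096 and 168498487-168498832. Although all lists shared 213 bp, the test thus compared partly different sites.

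The other, chr2:168560304-168563008, 40 kb into the gene, passed the F-test (adjusted p of 0.00232 in limma) with percentiles of 15.3 and 37.7 (Th9), 45.3 and 31.9 (Th2) and 82.7 and 75.6 (Th17), but no base of it was covered in all 6 lists. The Th9 peaks, at most 575 bp wide, lay within 168560573-168561147 and the Th17 peaks within 168561771-168562527, and a Th2 replicate 3 peak of 2705 bp joined them. At the Th17 site neither Th9 list had a peak, and Th2 replicate 1 had a peak at the 11th percentile. The test therefore compared different sites, and this was the only 1 of the 66 tested regions without a shared base, against 2.23% of all tested regions.

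Nfatc2 had 2 more intronic regions that did not pass the F-test but passed for 1 pair of subsets, and they are given here after their values were seen because the counts by pair include them. At 70.14 kb, chr2:168529834-168533199, the percentiles were 88.3 and 85.8 (Th9), 91.9 and 88.4 (Th2) and 81.3 and 68.7 (Th17). Here Th2 exceeded Th17, the direction opposite to that of the NFAT regions that passed the F-test, by 0.68 ± 0.19 (adjusted p of 0.0332 in limma, and 0.0664 to 0.325 when 1 of the Th2 or Th17 libraries was left out). At 85.24 kb, chr2:168515671-168517173, they were 54.1 and 49.8 (Th9), 74.1 and 75.1 (Th2) and 81.7 and 75.9 (Th17). Th9 was the lowest, with a Th9 minus Th17 difference of −0.63 ± 0.18 (adjusted p of 0.0490 in limma, and 0.0917 to 0.229 when 1 of the Th9 or Th17 libraries was left out). The highest non-promoter region of Nfatc2, in an intron 109.53 kb from the start, reached 90.1 to 97.9 in all libraries and did not pass the test.

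Nfatc3 had the largest difference of the 66 tested regions. A region −4.36 kb from the start, chr8:106054092-106054866, outside annotated protein-coding genes, lay at 84.1 and 79.4 (Th9), 38.7 and 40.5 (Th2) and 89.3 and 94.3 (Th17). The peaks shared 552 bp across all 6 lists, so the libraries differed in strength at one site. Th2 was below Th17 by a log2 difference of −1.58 ± 0.22 (adjusted p of 0.000318 in limma) and Th9 was above Th2 by 0.87 ± 0.22 (adjusted p of 0.0395), while the Th9 minus Th17 difference of −0.71 ± 0.22 had an adjusted p of 0.0653. The Th2 against Th17 call held without any 1 library, while the Th9 against Th2 call had adjusted p-values of 0.0690 to 0.152 without any 1 of those 4 libraries. The promoter did not follow this order, since all its values lay between 96.3 and 98.3.

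The middle of the strongest peak at that region is printed because its openness separated Th2 from the other subsets, with 300 bases of the plus strand, and none of the 4 words occurred in it or in the rest of the region. A second region upstream of Nfatc3, −6.07 kb from its start and inside the neighbouring gene Dus2, was called in both Th17 lists (percentiles of 58.3 and 57.7) and in no other. It is printed for its NF-κB word (capitals).
Nfatc3 −4.36 kb, chr8:106054340-106054639: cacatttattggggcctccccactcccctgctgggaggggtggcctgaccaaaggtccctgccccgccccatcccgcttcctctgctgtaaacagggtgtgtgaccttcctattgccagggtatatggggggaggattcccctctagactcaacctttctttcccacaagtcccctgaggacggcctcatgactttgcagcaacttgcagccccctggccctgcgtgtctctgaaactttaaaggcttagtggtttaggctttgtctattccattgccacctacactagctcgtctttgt
Nfatc3 −6.07 kb, chr8:106052620-106052919: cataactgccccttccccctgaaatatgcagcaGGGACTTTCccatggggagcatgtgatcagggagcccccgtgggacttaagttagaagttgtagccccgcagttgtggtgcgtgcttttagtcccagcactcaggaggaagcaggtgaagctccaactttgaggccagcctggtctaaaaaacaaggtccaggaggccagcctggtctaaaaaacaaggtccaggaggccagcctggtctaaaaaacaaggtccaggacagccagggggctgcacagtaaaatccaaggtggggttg

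Nfkb1 was the NF-κB gene with differing regions, 3 of its 14 tested, and Th17 was the highest in none of them. A region −8.97 kb from the start, chr3:135699619-135701411, also outside such genes, lay at 73.2 and 49.1 (Th9), 87.1 and 84.1 (Th2) and 14.1 and 1.67 (Th17). Th2 exceeded Th17 by 1.20 ± 0.17 on the log2 scale (adjusted p of 0.00035 in limma) and the Th9 minus Th2 difference was −0.70 ± 0.17 (adjusted p of 0.0317). Leaving out any library kept the first call, while the second had adjusted p-values of 0.0529 to 0.173 without 1 of the 6 libraries. The peaks were also narrower in Th17, at 239 and 674 bp, than in Th2, at 1793 and 1262 bp. In an intron 50.5 kb into the gene, chr3:135640113-135641906, Th9 led with 82.6 and 73.3, Th2 had 40.1 and 32.4 and Th17 had 58.6 and 55.0. Here the 3 subsets did not overlap, and Th9 exceeded Th2 by 0.75 ± 0.15 (adjusted p of 0.0161 in limma, and 0.0843 and 0.0608 without Th2 replicate 1 or 3).

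The third differing region touched an exon 87.6 kb into Nfkb1, chr3:135602646-135605242, and was also the gene's highest region outside its promoters. It lay at 89.0 and 93.6 (Th9), 97.9 and 95.8 (Th2) and 90.1 and 86.1 (Th17), and Th2 exceeded Th17 by 0.83 ± 0.21 (adjusted p of 0.0223 in limma). Both Th2 values were above the other 4, but the adjusted p rose to 0.106 without Th2 replicate 1 and to 0.122 and 0.216 without Th17 replicate 1 or 3. Further along the gene, 90.02 kb from its start, another exonic region, chr3:135601353-135601699, was called in both Th2 lists (69.7 and 76.7) and in no other, the highest mean percentile of any member region limited to 1 subset. The strongest-peak windows of the first 2 regions are printed because they set Th2 and Th9 apart in opposite directions, and the second holds an NFAT word (capitals).
Nfkb1 −8.97 kb, chr3:135700366-135700665, plus strand: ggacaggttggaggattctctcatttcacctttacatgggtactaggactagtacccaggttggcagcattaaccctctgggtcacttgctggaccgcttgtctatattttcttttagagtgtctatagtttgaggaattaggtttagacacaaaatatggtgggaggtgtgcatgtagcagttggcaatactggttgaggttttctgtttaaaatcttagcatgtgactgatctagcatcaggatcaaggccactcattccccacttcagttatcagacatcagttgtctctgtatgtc
Nfkb1 50.54 kb, chr3:135640518-135640817, plus strand: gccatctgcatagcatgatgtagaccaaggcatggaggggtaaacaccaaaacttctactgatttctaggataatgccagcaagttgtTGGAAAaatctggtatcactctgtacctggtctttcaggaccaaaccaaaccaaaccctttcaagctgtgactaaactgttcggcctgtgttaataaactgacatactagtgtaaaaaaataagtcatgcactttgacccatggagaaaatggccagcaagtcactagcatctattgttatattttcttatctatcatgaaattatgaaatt

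Few regions were called by both replicates of one subset and by no library of another. They numbered 5 in Th2, 3 in Th17 and 1 in Th9, or 3.73%, 2.24% and 0.746% of the 134, against 3.10%, 1.70% and 1.53% of the regions in all gene windows. One region was shared by Th9 and Th2 alone (background 2.45%) and 1 by Th2 and Th17 alone (background 1.42%), while 57 (42.5%) followed no subset, against 62.7%. Counts of 1 to 5 are too small to set the shares of the subset patterns apart from the background, and they were not tested. The share that followed no subset, 42.5%, was below its background of 62.7%. A missing call means only that the site fell under the threshold of that list. Rel and Nfkb1 had 2 Th2 regions each and Nfatc2 had 1.

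In Rel, which encodes the c-Rel subunit, both Th2 regions were intronic. The one 12.48 kb into the gene, chr11:23758258-23758720, lay at 72.9 and 57.9 and the one at 18.93 kb, chr11:23751909-23752170, at 61.7 and 59.3, above the middle of the Th2 lists. No intronic region of Rel was called in all 6 lists, and the gene had 7 and 8 regions in the Th2 libraries against 4 and 3 in Th9 and 4 and 1 in Th17. Over all 134 member regions the counts were 98 and 107 (Th2), 87 and 107 (Th9) and 91 and 80 (Th17). The whole lists held 142079 and 120198 peaks (Th2), 142213 and 101102 (Th9) and 127073 and 100317 (Th17). The counts at Rel were not tested. In Nfatc2, an intronic region 52.69 kb from the start was called in Th2 at 40.5 and 34.2, and one at 47.88 kb in Th17 at 58.8 and 51.3. The Rel 12.48 kb window held a run of short simple repeats (16.6% of its 12-base words recurred in it). The Rel 18.93 kb and Nfatc2 52.69 kb windows are printed for their AP-1 words, TGATTCA and TGACTCA (capitals, with an NFAT word also in capitals in the second).
Rel 18.93 kb, chr11:23751909-23752157, plus strand: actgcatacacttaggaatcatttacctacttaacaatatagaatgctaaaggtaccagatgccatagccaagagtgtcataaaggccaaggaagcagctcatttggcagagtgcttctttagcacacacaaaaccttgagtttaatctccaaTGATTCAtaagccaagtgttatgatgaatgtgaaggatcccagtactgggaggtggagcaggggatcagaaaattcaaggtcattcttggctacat
Nfatc2 52.69 kb, chr2:168548214-168548475, plus strand: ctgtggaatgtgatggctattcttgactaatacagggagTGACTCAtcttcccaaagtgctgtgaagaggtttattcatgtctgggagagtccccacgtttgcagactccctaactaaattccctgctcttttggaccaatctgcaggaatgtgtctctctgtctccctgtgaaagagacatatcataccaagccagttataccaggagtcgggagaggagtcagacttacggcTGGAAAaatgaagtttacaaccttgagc

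The Nfatc2 region at 52.69 kb held 5 AP-1 words and 3 NFAT words over its whole length of 1511 bp. Most of that length was called in Th2 replicate 3 alone (1509 bp). The 262 bp called in Th2 replicate 1, printed above, held 1 word of each kind. No background for regions of that length was counted. Among all member regions outside promoters, the 300 bp centred on the strongest peak held an AP-1 word in 18.3% (21 of 115), against 12.8% of 220288 non-promoter windows. These windows were not cut to the peak, so a counted word can lie outside a narrow peak. An NFAT word was in 15.7%, against 20.9%, and an NF-κB word in 6.09%, against 4.39%. In the 47 regions called in all 6 lists the AP-1 share was 12.8%, against 14.3%. These shares are counts of letters and name no bound factor.

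Each remaining region with a subset pattern had at least 1 value below the middle of a list. In Nfkb1, an intronic region 53.6 kb into the gene was called in Th2 (40.8 and 42.4) and one at 8.3 kb in Th9 and Th2 (35.2 to 36.9). In Nfatc3, an intronic region at 16.24 kb was called in Th2 (68.5 and 45.0) and Th17 (65.6 and 18.2). AP-1 words were not limited to the Th2 regions. The window of this Nfatc3 region held 1, with 3 over the whole region, and the Nfkb1 region at 8.3 kb held 1 outside its window. Near Nfkb2, a region 17.3 kb from its start and inside the neighbouring gene Psd was called in Th17 (21.4 and 52.4).

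Some of these calls lay in tandem repeats. The 1 region of the set called in both Th9 lists and no other, in an intron of Nfatc3 10.19 kb from its start, lay at 36.1 and 40.1, and 96.7% of the 12-base words of its window recurred within it. The Th2 region of Nfkb1 at 53.6 kb had 59.1% and the Th17 region of Nfatc3 at −6.07 kb had 30.1%. Over the non-promoter windows, here the full 300 bp not cut to the peak, 9.57% of the members' (11 of 115) and 10.4% of all had at least 20% of their words repeated. The Nfatc3 window is printed with the copies of its most frequent word in capitals; peaks were called against a single genome-wide background, and the part of the repeats in these calls was not tested.
Nfatc3 10.19 kb, chr8:106068883-106069168, plus strand: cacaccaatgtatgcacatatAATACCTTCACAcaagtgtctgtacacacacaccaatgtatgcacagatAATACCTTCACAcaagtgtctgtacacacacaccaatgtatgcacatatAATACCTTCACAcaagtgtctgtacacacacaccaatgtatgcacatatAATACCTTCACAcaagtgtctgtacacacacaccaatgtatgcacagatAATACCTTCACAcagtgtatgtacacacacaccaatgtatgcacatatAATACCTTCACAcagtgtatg

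No region of Nfkb2, Rel, Rela, Relb, Nfkbia or Nfkbiz passed the F-test or the test of a pair, and outside its promoter Rel had none that could be tested. Rela had a region just past its 3′ end, 11.59 kb from its start, between 85.9 and 91.4 (adjusted p of 0.608 in limma). Nfkbia had one past its 3′ end, 4.59 kb from its start and reaching just into the last exon, at 85.3 and 76.5 (Th9), 87.5 and 83.9 (Th2) and 65.7 and 75.9 (Th17). Both Th17 values were the lowest, but the F-test gave an adjusted p of 0.252. Nfkbiz had one −15.0 kb from its start, inside Nxpe3, between 70.1 and 81.7 (adjusted p of 0.619 in limma). For Nfatc3, Nfkb2 and Relb the highest region outside their own promoters was the promoter of a neighbour, Pla2g15, Fbxl15 and Psd, and Clasrp.

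Other genes of the pathway were counted as a list. The 19 genes, with calcineurin subunits, adaptors upstream of the IκB kinase, the kinase itself, further IκB proteins and TRAF adaptors, had 207 regions, of which 80 were called in all 6 lists and 12 (15%) differed among the subsets, against 10.5% of all tested regions. Promoters of 18 of the 19 genes were open in all 6 lists, with Nfatc4 as the exception. The same share over all genes was not counted, and the 80.3% given above is a share of promoter regions. Of the 80 tested regions, Th2 was higher than Th17 at 8 (10%, against 5.04% of all tested regions) and lower at 3 (3.75%, against 2.40%). Th9 was higher than Th17 at 5 (6.25%, against 3.11%) and lower at 2 (2.5%, against 2.90%). Th9 was higher than Th2 at 1 (1.25%, against 1.01%) and lower at 2 (2.5%, against 2.18%). Calls fell at Ppp3ca, Ppp3cb, Ppp3r1, Traf1, Traf6 and Tnfaip3. The smallest p was at Ppp3ca, a catalytic subunit of calcineurin, where chr3:136761180-136762308 lay at 43.9 and 50.3 (Th9), 92.1 and 93.4 (Th2) and 53.2 and 58.0 (Th17) (F-test, adjusted p of 0.000323 in limma).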

How the data were processed

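ATAC-seq peak lists of 6 libraries were analysed. Per the methods and the submitters' processing notes, the authors trimmed reads with Trim Galore 0.4.3, aligned them to mm10 with bowtie2, removed duplicates with Picard together with mitochondrial and poorly mapped reads, and called broad peaks for each library with MACS2 2.1.0, without an input control and without local background. The cutoff is not given in the sources used here. The deposited lists give each peak's fold enrichment, a ratio averaged over the peak, its −log10 p-value, its −log10 q-value (a filter in an alternative) and a display score, which was not used. As the values are not read counts, depth is known only through the lowest fold called, and peak width, which differs between libraries, enters the ratio.

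Genes came from the GENCODE M21 basic set, and a promoter spanned 1000 bp before and 100 bp after an annotated start. A library called a region when its peak overlapped by at least 1 bp. Regions called in all 6 lists were tested with limma 3.58.1 in R 4.3.3 (log2 fold enrichment, quantile-normalized, subset as the only factor, variance trend, two-sided), and p-values were Benjamini-Hochberg adjusted over all 50493. Sites missing from any list were not tested, so a site closed in 1 subset could not be called. The F-test was also run on simulated data with independent normal noise and 200 regions shifted in Th9 only. It recovered 96.5% of those with a log2 difference of 1 and 100% of those with 2 among 50493. It also called 19 and 15 regions that were not shifted. As the noise followed the model of the test, this checks the calculation and does not measure its power in these libraries. Regions described one by one were all promoters of the members, at most 4 regions past the F-test per gene and all regions limited to 1 or 2 subsets. The highest region outside each gene's own promoters was described as well. The members, the pathway list and the tests were chosen with earlier results of these data known. A gene of the pathway list and a cell type marker are not reported here. Python 3.11.15, numpy 2.4.6 and pandas 2.3.3 were used.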

Additional observations from a re-analysis of the deposited data

How the results depend on the processing

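Each count is given with the share of all tested regions called in the same setting. Of the member regions, 7 of 66 differed among the 3 subsets as reported (10.5%). The count was 2 of 66 with the logit of the percentile (2.75%) and with fold enrichment times width (2.88%). It was 1 of 36 with peaks of a −log10 q of at least 5 (10.1%) and 1 of 20 with a fold of at least 4 (2.36%). With the −log10 q filter the members' count thus fell while the share of all tested regions stayed near that reported. For Th9 against Th2 (3 as reported, 3.19%) it was 0 with the logit (0.224%) and with fold times width (0%). With all 3 filters on peaks it was also 0. The shares there were 4.18% with a −log10 q of at least 5, 4.08% with a fold of at least 2.2 and 1.26% with a fold of at least 4. In these settings 4 to 10 member regions had an unadjusted p below 0.05 in limma. For Th9 against Th17 (4 as reported, 6.01%) it was 7 with median centring (6.40%). It was 0 with the logit (1.16%), a −log10 q of at least 5 (4.48%) or a fold of at least 4 (0.282%). In those 3 settings 12, 6 and 3 member regions had an unadjusted p below 0.05 in limma. For Th2 against Th17 (7 as reported, 7.44%) it was 2 with the logit (2.78%) and 4 with fold times width (3.10%). It was also 2 with a −log10 q of at least 5 (7.15%) and with a fold of at least 4 (2.12%). Leaving out a library gave 4 to 9 among the subsets (4 without Th17 replicate 1), 0 to 2 for Th9 against Th2 (0 without either Th2 replicate, with 10 at an unadjusted p below 0.05, and 1 without either Th9 replicate), 1 to 7 for Th9 against Th17 (1 without replicate 1 of either, 2 without Th17 replicate 3 and 7 without Th2 replicate 3) and 3 to 9 for Th2 against Th17 (3 and 4 without Th17 replicate 1 or 3), the lone library of a subset being assumed to vary like the others. The filters left fewer regions to test, and the other causes were not tested. The 134 regions became 48 with a fold of at least 4 and 82 without flanks, and the 66 in all 6 lists became 36 with a −log10 q of at least 5, 20 with a fold of at least 4 and 24 when 50% of the region had to be covered.

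The Nfatc3 region at −4.36 kb and the Nfkb1 region at −8.97 kb kept the call of the subset pair with their smallest p in 12 of 12 settings that gave a value. Such calls held for Nfatc1 at 30.1 kb in 10 of 13, Nfatc2 at 101.83 kb in 8 of 13 and at 40 kb in 8 of 11, and Nfkb1 at 50.54 kb in 8 of 12 and at 87.6 kb in 9 of 15, and 0 were reversed. None of the 3 filters on peaks gave a value for Nfatc3 at −4.36 kb, Nfkb1 at −8.97 kb and 50.54 kb, or Nfatc2 at 40 kb. Nfatc1 at 30.1 kb and Nfatc2 at 101.83 kb had a value only with a fold of at least 2.2, and Nfkb1 at 87.6 kb had one with each filter. Requiring a base covered in all 6 lists, an alternative chosen after seeing the data, gave 6 regions among the subsets, without the Nfatc2 region at 40 kb. The labels do not say whether equal replicate numbers pair libraries across subsets. Deviations of equal numbers correlated at 0.207 (Th9 and Th2), 0.0098 (Th9 and Th17) and 0.00096 (Th2 and Th17). With a replicate block, 10 regions differed among the subsets, 3 between Th9 and Th2, 6 between Th9 and Th17 and 9 between Th2 and Th17.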
